A study of Drosophila melanogaster with 6 samples.

Results

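LID RNAi wing discs were compared with wild type wing discs of Drosophila melanogaster across 18769 probe sets, which are all probe sets of the array except the 183 controls of the manufacturer. The comparison uses the 4 arrays titled LID RNAi or wt, of 6 arrays in all, and the 2 GFP RNAi arrays serve to separate changes also present in GFP RNAi from those seen in LID RNAi only. LID RNAi discs carry the lid k06801 allele and express a hairpin against lid under act5C-Gal4. GFP RNAi discs come from w1118 larvae that express a hairpin against GFP under the same driver. Wild type discs have no RNAi in the RNAi field of their labels and are called white wild type in the design text, although their background field still names w1118 with act5C-Gal4 and RNAi. Whether the wild type larvae carried the driver is therefore not settled by the labels. In changes seen in both RNAi groups, effects of the hairpins, of the driver and of strain differences cannot be told apart. In changes seen in LID RNAi only, the hairpin against lid, the allele and other strain differences cannot be told apart either. All larvae were raised at 25 °C and dissected as wall climbers of the third instar, with 30 discs per condition and 25 ng of total RNA amplified and biotin-labelled per sample. The hairpin strains came from NIG-FLY. Knockdown and allele occur together, each group has 2 arrays, and the labels do not say whether those came from separate dissections.

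Kdm5 is the current name of lid. Its product is an enzyme that removes trimethylation from lysine 4 of histone H3, a mark found at the start sites of active genes. In an RNAi knockdown a hairpin RNA is cut into small RNAs that direct the cleavage of the matching transcript, and a hairpin against GFP has no matching transcript in flies without GFP. The wing imaginal disc is the larval epithelium that forms the wing and the notum, and it also carries muscle precursors, tracheal branches and attached blood cells. The gene act5C encodes an actin made in most cells, so its Gal4 driver acts in nearly all tissues of the larva.

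Array medians lay between 6.31 and 6.43 on the log2 scale of the deposited values. The LID RNAi arrays correlated at 0.9897, the GFP RNAi arrays at 0.9948 and the wild type arrays at 0.9952. With the GFP RNAi arrays, LID RNAi replicate 1 correlated at 0.9928 and 0.9904 and LID RNAi replicate 2 at 0.9878 and 0.9897. The LID RNAi arrays were thus no closer to each other than replicate 1 was to GFP RNAi. LID RNAi replicate 2 had the largest difference between the signals at the 3′ and 5′ ends of GAPDH, 3.54 against 2.67 to 3.17 on the other 5 arrays, so counts are given below with and without it. The wing disc genes vg, ap, nub, en, hh and dpp read between 10.95 and 13.05 on all arrays with changes between -0.14 and 0.10 in LID RNAi against wild type. Values at or below 4.82, the 95% point of 27 probe sets for Bacillus transcripts, are called background here. In whole discs, fewer cells of a type and less RNA per cell cannot be told apart.

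The targeted gene Kdm5 read 8.36 and 8.04 on the LID RNAi arrays, 10.32 and 10.45 with the GFP hairpin and 10.42 and 10.33 in wild type. Both LID RNAi arrays lay below all 4 others, and the GFP RNAi and wild type arrays overlapped. Kdm5 fell by 2.17 ± 0.13 (SE, n = 2 each, limma adjusted p = 0.00877), to 22.2% of the wild type level. The change of GFP RNAi against wild type was 0.01 (limma adjusted p = 0.987). The fall of Kdm5 missed the threshold without wild type replicate 1 (limma adjusted p = 0.0805) and without wild type replicate 2 (limma adjusted p = 0.0709), at changes of -2.13 and -2.22.

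Across all genes, 439 probe sets (2.34%) passed a limma adjusted p of 0.05 between LID RNAi and wild type, 160 of them higher (0.852%) and 279 lower (1.49%) in LID RNAi. They stand for 348 named genes, 124 with a higher and 225 with a lower probe set, with CG43394 counted in both. Another 63 had no gene symbol and 24 had several. The change reached 2-fold for 249 and 4-fold for 73. The median change of all tested probe sets was -0.009. When each array was centred on its median, 450 probe sets passed and 53.3% of them were lower, compared with 63.6% for the deposited values, and quantile normalization gave 430 with 56.7% lower. The split between higher and lower calls therefore moves with the scaling.

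Each of the 439 was placed by the other 2 contrasts of the same fit. GFP RNAi against wild type passed for 162 probe sets (0.863%), with 0.437% of all tested higher and 0.426% lower, and LID RNAi against GFP RNAi for 88 (0.469%). A change counts as shared when GFP RNAi differed from wild type in the same direction and LID RNAi did not pass against GFP RNAi, which held for 104 (23.7% of the 439). It counts as LID RNAi only when LID RNAi passed against both groups in 1 direction and GFP RNAi did not pass against wild type, which held for 53 (12.1%). A further 6 passed in all 3 contrasts with GFP RNAi in between, and are called graded. The largest class, 272 probe sets (62.0%), passed in neither other contrast and is called unresolved. The remaining 4 had other patterns. The contrasts share arrays, so the classes describe positions of 3 group means and are not independent tests. Selection by these contrasts also favours arrays that do not overlap. LID RNAi and wild type arrays did not overlap for all 439, and for 47.1% of all tested probe sets.

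**Figure D1:**
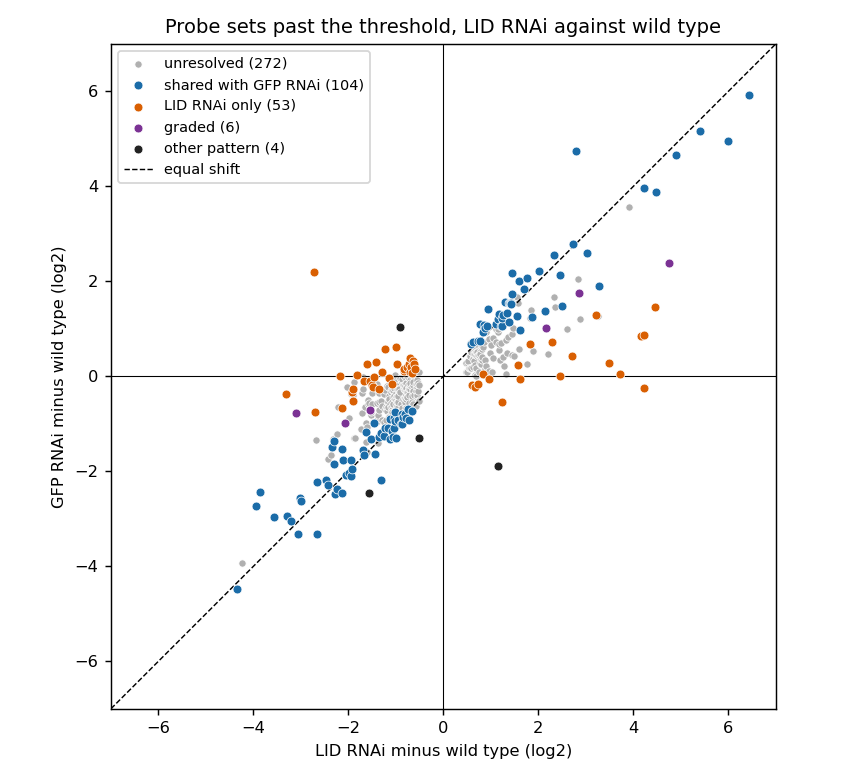
Each point is 1 of the 439 probe sets past the threshold, with the log2 change of LID RNAi against wild type on the x axis and that of GFP RNAi against the same wild type arrays on the y axis. The 104 shared changes lie along the dashed line of equal shift, and the 53 LID RNAi only changes lie between -0.75 and 2.21 on the y axis. The 272 unresolved changes reach from near the dashed line to near 0 on the y axis and are not set apart by position. Of these, 264 have a GFP RNAi shift of the same sign.

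How many changes passed depended on single arrays. Without LID RNAi replicate 2 the count was 128, with 53 shared and 0 LID RNAi only. It was 324 without LID RNAi replicate 1, with 61 shared and 2 LID RNAi only. Without GFP RNAi replicate 1, and equally without GFP RNAi replicate 2, 99 passed, with 3 shared and 0 LID RNAi only. Without wild type replicate 1 there were 24, with 14 shared and 0 LID RNAi only, and without wild type replicate 2 there were 27, with 13 shared and 0 LID RNAi only. At an unadjusted limma p of 0.05 these 6 fits put between 669 and 1877 probe sets in the LID RNAi only pattern, against 1022 with all arrays. All 439 changes kept their sign in each of the 6 fits. This was fixed in advance, because the LID RNAi and wild type arrays did not overlap for any of the 439. Of the 53 LID RNAi only changes, 23 still passed against wild type without LID RNAi replicate 2, 34 without LID RNAi replicate 1, 24 without GFP RNAi replicate 1 or replicate 2, and 3 and 4 without wild type replicate 1 and 2.

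In the LID RNAi only class, 17 named genes (19 probe sets) were higher. Several read within background in wild type and clearly above it in LID RNAi. CG6434 read 6.69 and 6.44 in LID RNAi, against 2.88 and 2.92 with the GFP hairpin and 2.89 and 2.81 in wild type. Its 2 LID RNAi arrays stood above background and the other 4 did not, which gives a level at least 3.35-fold higher against the background limit (limma adjusted p = 0.00187). Leaving out 1 array gave rises of CG6434 between 3.58 and 3.84.

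CG13526 reached 9.64 and 8.38 in LID RNAi discs, 4.48 and 4.57 in GFP RNAi discs and 4.50 and 5.06 in wild type discs. The LID RNAi arrays were far apart from each other but above all others, and the rise of 4.23 ± 0.45 had a limma adjusted p of 0.0273. Its difference from GFP RNAi lay just inside the threshold (limma adjusted p = 0.049). CG10384 read 6.81 and 6.78 on the LID RNAi arrays, 4.26 and 4.43 with the GFP hairpin and 4.17 and 4.50 in wild type, which puts GFP RNAi and wild type both within background and the rise at 3.93-fold or more (limma adjusted p = 0.00846).

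The gene eIF4E3 encodes a member of the eIF4E family, which binds the cap of mRNAs to start translation. It read 8.84 and 8.41 in LID RNAi, against 5.81 and 5.07 with the GFP hairpin and 5.29 and 5.0 in wild type. The GFP RNAi and wild type arrays overlapped, and the rise over wild type was 3.48 ± 0.30 (limma adjusted p = 0.0173), or 11.2-fold. For eIF4E3, leaving out 1 array gave rises between 3.27 and 3.7. It was the 1 gene that passed, adjusted or unadjusted, of 12 measured on the eIF4E and cap-binding list (8.33%, against 2.72% of all genes).

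CG14692, Spn47C and CG14879 belong to the same class, although their GFP RNAi arrays stood above wild type by amounts that missed the threshold. Spn47C, of the serpin family of protease inhibitors, read 10.89 and 10.73 in LID RNAi discs, 9.03 and 8.73 in GFP RNAi discs and 7.82 and 7.38 in wild type discs. No arrays of different groups overlapped for it, and the rise was 9.24-fold (limma adjusted p = 0.00846), with a GFP RNAi shift of 1.28 (limma adjusted p = 0.0907). CG14692 read 9.08 and 8.70 on the LID RNAi arrays, 6.09 and 5.70 with the GFP hairpin and 4.38 and 4.49 in wild type, so that wild type alone was within background and the rise was at least 16.8-fold (limma adjusted p = 0.00502). The other probe set of CG14692 had a change of 1.05 and did not pass. CG14879 had 7.41 and 7.50 in LID RNAi, against 5.89 and 5.88 with the GFP hairpin and 5.29 and 5.05 in wild type, a rise of 2.29.

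The gene ng1, for a protein of the salivary gland glue, read 5.36 and 5.41 in LID RNAi discs, 3.20 and 3.02 in GFP RNAi discs and 2.48 and 2.86 in wild type discs. Only the LID RNAi arrays were above background, by a small margin, so the rise of 2.71 (limma adjusted p = 0.00846) amounts to at least 1.48-fold. It was the 1 gene past the threshold of 17 salivary gland markers measured (5.88%, against 2.72% of all genes). The summed level of the 6 salivary markers Sgs3, Sgs4, Sgs5, Sgs7, Sgs8 and ng1 was 12.06 and 13.20 on the LID RNAi arrays, 12.82 and 11.90 with the GFP hairpin and 12.17 and 12.38 in wild type in log2, and those groups overlapped.

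Among the lower-ranked rises of this class, chosen after their values were seen, were Gat, for a transporter of the neurotransmitter GABA, and Cadps, for a factor of regulated secretion. Gat, within background in wild type, rose by at least 2.27-fold, Cadps rose by 1.61 and Septin5, for a filament-forming GTPase, by 0.96.

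**Figure D2:**
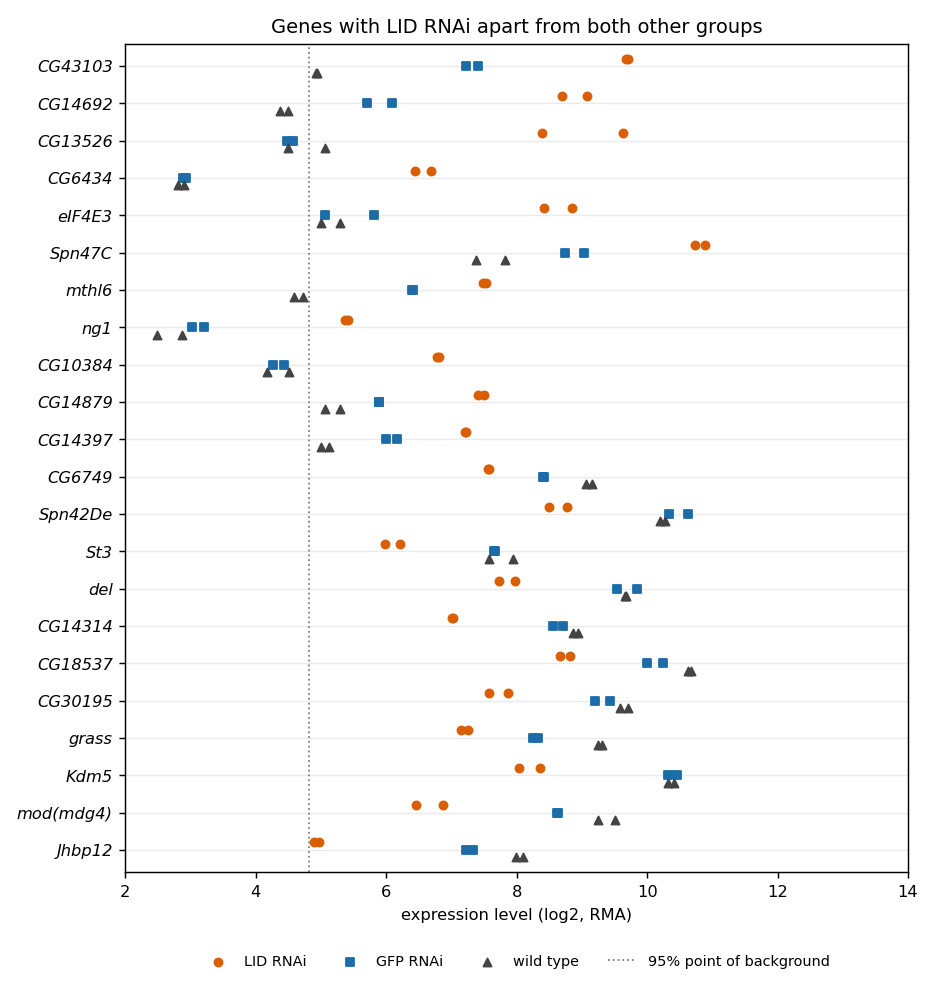
Expression level (log2, x axis) on each of the 6 arrays for the named genes of the LID RNAi only and graded classes, with LID RNAi as circles, GFP RNAi as squares and wild type as triangles. The LID RNAi arrays lie outside the other 4 in every row. The contrasts that define the classes select for this, and 23.5% of all tested probe sets show it. GFP RNAi lies on top of wild type for Kdm5, CG6434 and CG10384 and between the other groups for CG43103, mthl6 and Jhbp12. The dotted line marks the background limit of 4.82.

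In the same class 26 named genes (34 probe sets) were lower, Kdm5 among them. Among these genes the largest measured fall was that of 1 probe set of mod(mdg4), a gene for chromatin proteins with many alternative 3′ ends. This probe set read 6.87 and 6.46 in LID RNAi, against 8.62 and 8.63 with the GFP hairpin and 9.25 and 9.50 in wild type, and no groups overlapped. It fell by 2.71 ± 0.17 (limma adjusted p = 0.00877). The array holds 22 probe sets for mod(mdg4), of which this was the 1 past the threshold. Their changes ran between -2.71 and 0.63, with 7 above 0.

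Both del and cuff were in this class. They encode deadlock and cutoff, which act in the nucleus on transcripts of piRNA clusters, the loci that give rise to small RNAs against transposons in the germline. The level of del was 7.72 and 7.98 in LID RNAi discs, 9.84 and 9.54 in GFP RNAi discs and 9.67 and 9.66 in wild type discs. That of cuff was 7.19 and 7.29 on the LID RNAi arrays, 8.94 and 8.98 with the GFP hairpin and 8.63 and 8.68 in wild type. For each gene both LID RNAi arrays were below all others. The fall was 1.82 ± 0.14 on the log2 scale for del (limma adjusted p = 0.014) and 1.41 ± 0.07 for cuff (limma adjusted p = 0.00831). Without 1 array, changes ran from -1.95 to -1.69 for del and from -1.46 to -1.37 for cuff.

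The serpin gene Spn42De read 8.49 and 8.77 in LID RNAi, against 10.34 and 10.62 with the GFP hairpin and 10.19 and 10.27 in wild type, and St3, for a sulfotransferase, read 6.22 and 5.98 in LID RNAi discs, 7.66 and 7.65 in GFP RNAi discs and 7.95 and 7.58 in wild type discs. LID RNAi was the low group for both. Spn42De fell by 1.60 (limma adjusted p = 0.0191) and St3 fell by 1.66 (limma adjusted p = 0.0204). St3 passed against GFP RNAi at a limma adjusted p of 0.049. The other probe set of St3 had a change of -0.38 and did not pass. Without 1 array, changes ran from -1.74 to -1.46 for Spn42De and from -1.85 to -1.48 for St3.

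GNBP2, of a family of pattern recognition proteins of the immune system, fell by 1.5 and was the lower of the 2 genes past the threshold on the immune list. CG14314 fell by 1.89, CG18537 by 1.90 and CG30195 by 1.92, with limma adjusted p-values of 0.00522, 0.00846 and 0.0132 in the same order. LysX, a lysozyme gene, fell by 1.0, but all 6 of its values lay within background. Further members, chosen after their values were seen, were wtrw, for a channel of the TRP family (-1.46), scaf, for a protein related to serine proteases (-0.70), png, for a protein kinase of the egg (-0.66), and the caspase gene Strica (-0.63). For scaf LID RNAi read 10.78 and 10.90, against 11.88 and 11.96 with the GFP hairpin and 11.53 and 11.55 in wild type, so that GFP RNAi was the highest group.

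The 6 graded genes passed in all 3 contrasts, 3 of them higher and 3 lower. CG43103 read 9.70 and 9.68 on the LID RNAi arrays, 7.23 and 7.40 with the GFP hairpin and 4.94 and 4.92 in wild type. Its arrays formed 3 separate pairs, with a rise of 4.76 ± 0.09 against wild type (limma adjusted p = 0.000634) and of 2.38 in LID RNAi against GFP RNAi (limma adjusted p = 0.0055). The gene mthl6, for a receptor related to methuselah, read 7.52 and 7.48 in LID RNAi, against 6.42 and 6.39 with the GFP hairpin and 4.72 and 4.58 in wild type, at least 6.4-fold higher in LID RNAi than in wild type. It was the 1 gene past the threshold of 15 methuselah receptor genes measured (6.67%, against 2.72% of all genes). CG14397 rose by 2.15, with a GFP RNAi shift of 1.02.

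Jhbp12, of a family named for juvenile hormone-binding proteins, read 4.89 and 4.96 in LID RNAi discs, 7.34 and 7.21 in GFP RNAi discs and 7.98 and 8.09 in wild type discs. The LID RNAi arrays were just above the background limit, and Jhbp12 fell by 3.11 ± 0.09 (limma adjusted p = 0.00187), or 8.63-fold. The gene grass, for a serine protease of the Toll pathway of immunity, read 7.26 and 7.14 on the LID RNAi arrays, 8.32 and 8.25 with the GFP hairpin and 9.24 and 9.30 in wild type. It fell by 2.07 and was the 1 gene past the threshold of 31 serine proteases measured (3.23%, against 2.72% of all genes). CG6749 fell by 1.55, with GFP RNAi at -0.71.

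Changes shared with GFP RNAi included the largest of all. Among the 36 named genes that were higher, t read 9.56 and 9.54 in LID RNAi, against 8.34 and 8.69 with the GFP hairpin and 3.43 and 3.68 in wild type. The gene encodes tan, an enzyme that frees dopamine in pigment formation. All 4 RNAi arrays were above background and both wild type arrays below it, and the rise in LID RNAi was at least 26.5-fold (limma adjusted p = 0.00179).

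CG30356 read 12.13 and 12.14 in LID RNAi discs, 11.86 and 11.92 in GFP RNAi discs and 6.69 and 6.76 in wild type discs, a 42.5-fold rise between levels that were all above background (limma adjusted p = 0.000316). CG13032 read 9.16 and 9.23 on the LID RNAi arrays, 9.01 and 8.88 with the GFP hairpin and 4.40 and 4.19 in wild type. CG17778 had 10.34 and 10.35 in LID RNAi, against 9.81 and 9.69 with the GFP hairpin and 6.22 and 5.50 in wild type. CG13032 was within background in wild type, and its rise was at least 20.8-fold. In each of these the 4 RNAi arrays lay together and the wild type arrays apart. Reepl1, related to proteins that shape the endoplasmic reticulum, rose by 4.23 with a GFP RNAi shift of 3.97, and CG31262 was at least 5.17-fold higher in LID RNAi, with a change of 2.46 and a GFP RNAi shift of 2.14. CG15370 rose by 3.27 with a GFP RNAi shift of 1.90, and its difference between LID RNAi and GFP RNAi, 1.37, did not pass (limma adjusted p = 0.104).

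CanA-14F encodes a catalytic subunit of calcineurin, a calcium-dependent phosphatase. It rose by 3.02 at 1 probe set, with 8.30 and 8.18 in LID RNAi discs, 7.64 and 7.98 in GFP RNAi discs and 5.49 and 4.95 in wild type discs, whereas its other probe set had a change of -0.34. The largest change on the array, 6.43 with a GFP RNAi shift of 5.92, belonged to a probe set with no gene symbol.

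Shared falls numbered 40 named genes. CG5282 read 4.08 and 3.98 on the LID RNAi arrays, 3.94 and 3.86 with the GFP hairpin and 8.69 and 8.08 in wild type. All RNAi arrays were within background, and the fall was at least 11.8-fold (limma adjusted p = 0.00691). Prx6c, for a peroxiredoxin that reduces peroxides, read 3.12 and 3.12 in LID RNAi, against 3.25 and 3.33 with the GFP hairpin and 6.56 and 6.10 in wild type, a fall of at least 2.84-fold (limma adjusted p = 0.00784). Cpr47Ee, for a chitin-binding cuticle protein, read 4.49 and 4.31 in LID RNAi discs, 5.19 and 4.33 in GFP RNAi discs and 7.51 and 7.89 in wild type discs. Its fall was at least 7.36-fold (limma adjusted p = 0.0216). For these genes wild type was the high group and the RNAi groups were at or near background.

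Culd read 8.42 and 8.40 on the LID RNAi arrays, 8.81 and 8.94 with the GFP hairpin and 11.51 and 11.35 in wild type, and fell by 3.02 ± 0.09 (limma adjusted p = 0.00194), or 8.12-fold, between levels well above background. CG34247 fell by 3.86, CG31809 by 3.95 (at least 4.4-fold against the background limit) and the long noncoding RNA gene lncRNA:CR32368 by 3.58. GFP RNAi stood between the other groups for CG34247 and CG31809, with differences of -1.43 and -1.22 between LID RNAi and GFP RNAi that missed the threshold. The gene r-cup, which is expressed in the male germline, fell by 2.65 at its strongest probe set, and 2 of its 3 probe sets passed.

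**Figure D3:**
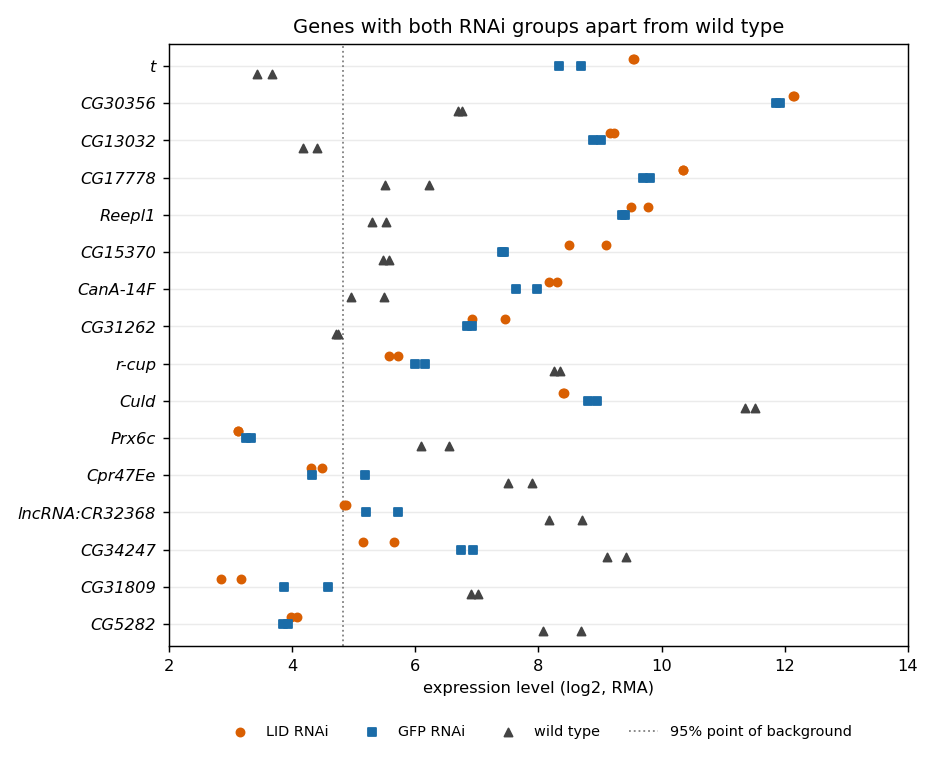
Expression level (log2, x axis) on each of the 6 arrays for the named genes of the shared class, with LID RNAi as circles, GFP RNAi as squares and wild type as triangles. The 4 RNAi arrays lie on 1 side and the 2 wild type arrays on the other in every row. The contrasts that define the class select for this, and 23.6% of all tested probe sets show it. The dotted line marks the background limit of 4.82.

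The unresolved class held 221 named genes, 68 higher and 154 lower, with CG43394 counted in both. Its members passed against wild type while GFP RNAi was not told from either group. For yellow-h, of the Yellow family of secreted proteins, the values were 8.56 and 8.67 in LID RNAi, against 6.31 and 6.94 with the GFP hairpin and 4.86 and 5.87 in wild type. The GFP RNAi pair lay in the middle and did not overlap either group, and the rise of 3.25 ± 0.39 (limma adjusted p = 0.0346) passed in 0 of the 6 fits without an array. The gene lz, for a Runx transcription factor of crystal cells and of the eye, read 5.47 and 5.75 in LID RNAi discs, 3.54 and 4.25 in GFP RNAi discs and 3.55 and 3.28 in wild type discs, and it rose by 2.20 (limma adjusted p = 0.0346), at least 1.73-fold against the background limit. SerT, for the serotonin transporter, read 7.16 and 7.02 on the LID RNAi arrays, 5.73 and 5.45 with the GFP hairpin and 5.62 and 5.03 in wild type. For lz and SerT the GFP RNAi arrays overlapped wild type, and their differences from GFP RNAi, 1.72 and 1.5, did not pass (limma adjusted p = 0.111 and 0.101).

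Cpr49Ah, for a cuticle protein, rose by 2.33, Syn2, for a syntrophin of the dystrophin complex, by 1.84 (at least 1.46-fold over background), CG8012 by 2.59, CG42694 by 2.36 and CG8157 by 1.89. Obp56a, for an odorant-binding protein, read 7.91 and 8.0 in LID RNAi, against 7.48 and 9.03 with the GFP hairpin and 12.38 and 12.01 in wild type. Its RNAi arrays all lay below wild type and overlapped each other, and the fall of 4.23 ± 0.52 passed (limma adjusted p = 0.0346) while the GFP RNAi shift of -3.94 did not (limma adjusted p = 0.0681). CG5535 had the opposite arrangement, with 7.62 and 7.90 in LID RNAi discs, 9.49 and 9.67 in GFP RNAi discs and 9.59 and 10.01 in wild type discs, and lay just outside the LID RNAi only class (limma adjusted p = 0.051 against GFP RNAi).

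Strn-Mlck, for a muscle protein of the myosin light chain kinase family, was within background in LID RNAi and at least 5.08-fold lower there than in wild type at 1 of its 3 probe sets, whose changes ran between -2.69 and 0.19. Scgalpha, for a sarcoglycan, was likewise at least 2.49-fold lower in LID RNAi. Cyp4e2, a cytochrome P450 gene, read 9.78 and 9.08 on the LID RNAi arrays, 11.05 and 10.94 with the GFP hairpin and 11.64 and 11.64 in wild type, and fell by 2.21 (limma adjusted p = 0.0278). Tsp42Ej, for a tetraspanin membrane protein, fell by 2.42, CG31373 by 2.33 and Pos by 2.23.

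Genes were also counted on 33 lists of pathways, families and tissue markers, with each gene represented by its brightest probe set. On that basis 326 of 11982 genes passed (2.72%), 116 higher (0.968%) and 210 lower (1.75%), and the median change of all genes was -0.02, with 46.1% above 0. The lists held 1059 measured genes, of which 18 were higher and 29 lower. At least 1 gene passed on 25 lists.

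The list of histone H3 lysine 4 methylation and lid partners had 23 measured genes, and Kdm5 was the 1 that passed (4.35%, against 2.72% of all genes). The median change of the list was -0.01. The methyltransferase genes trx and trr had changes of -0.15 and 0.01, the subunit genes ash2, Rbbp5 and wds had -0.05, -0.01 and 0.12, and the demethylase genes Su(var)3-3 and Utx had -0.03 and -0.15. None of 35 wing disc patterning genes passed in limma (6 at an unadjusted p under 0.05), and the median was -0.03 with changes from -0.50 for Doc1 to 0.46 for Dad. Likewise none passed in limma among 17 Polycomb group and homeotic genes (1 unadjusted) or 18 genes of cell cycle and replication (0 unadjusted), with medians of 0.03 and 0.08. Of 22 Notch and proneural genes 2 fell (9.09%). These were ase, a proneural transcription factor gene (-1.08, limma adjusted p = 0.0438), and mam, for a coactivator of Notch (-0.55, limma adjusted p = 0.0445), both unresolved. The other probe set of mam had a change of 0.13.

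Small RNA pathway genes held 5 genes past the threshold of 31 measured (16.1%, against 2.72% of all genes). Of these 1 was higher and 4 were lower, at a list median of -0.07. The fall of tej, for a Tudor domain protein of germline piRNA formation, was shared with GFP RNAi, with 5.34 and 4.99 in LID RNAi, against 5.93 and 5.60 with the GFP hairpin and 7.23 and 7.35 in wild type. The wild type arrays stood apart for tej, whereas LID RNAi stood apart for del and cuff. The fall of qin, another Tudor domain gene of the pathway, was 0.63 (at least 1.13-fold against the background limit) and the rise of nxf2, for a protein of piRNA-guided silencing, was 0.63, and both were unresolved. Changes of aub and AGO3, which encode the Argonaute proteins of the piRNA amplification cycle, were -1.64 and 1.02 and did not pass (limma adjusted p = 0.12 and 0.137), nor did piwi (-0.33). Germline and testis genes had 0 of 36 past the threshold in limma (3 unadjusted).

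Cytochrome P450 and transferase genes encode enzymes of detoxification. Of 81 cytochrome P450 genes 1 rose and 3 fell (4.94%, against 2.72% of all genes), with a list median of -0.06. Cyp9c1 rose in both RNAi groups and read 10.87 and 10.65 in LID RNAi discs, 10.86 and 11.08 in GFP RNAi discs and 8.95 and 8.57 in wild type discs. Cyp6a20 fell in both, at 5.04 and 4.92 on the LID RNAi arrays, 4.94 and 4.97 with the GFP hairpin and 7.09 and 6.98 in wild type. In both genes the RNAi groups overlapped and wild type was apart. Cyp313a2 was within background in LID RNAi, with wild type at 4.86 and 5.15, and was at least 1.14-fold lower in LID RNAi. Of 69 glutathione and UDP transferase genes 2 rose and 1 fell (4.35%), all unresolved, with a list median of 0.02. GstD9 rose by 1.35 and GstD3 by 0.74, and GstZ1 fell by 1.18. The GstD genes are close paralogues, and cross-hybridisation between them was not tested. Among 20 antioxidant genes Prx6c was the 1 that passed (5.0%).

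Of 117 cuticle and chitin genes 2 rose and 3 fell (4.27%, against 2.72% of all genes), with a list median of 0.02. Besides Cpr49Ah and Cpr47Ee these were obst-E, for a chitin-binding protein (1.44), the Tweedle gene TwdlW (-1.10) and Cpr76Bc (-0.73), the last with all 6 arrays within background. Of 20 pigmentation genes t and yellow-h rose and yellow-d fell by 1.35 (15.0% of the list). Of 27 serpin genes Spn47C rose and Spn42De and Spn28Dc (-0.92) fell (11.1% of the list). Of 60 odorant-binding and pheromone-binding protein genes 1 rose and 2 fell (5.0%). Obp99a fell by 1.57, belonged to none of the 4 classes above and read 9.78 and 9.77 in LID RNAi, against 8.88 and 8.91 with the GFP hairpin and 11.44 and 11.25 in wild type, so GFP RNAi was the lowest group. Obp47a rose by 0.67, at least 1.5-fold over background. Of 165 chemosensory receptor genes, 138 of them within background in both groups, Or22a (0.63), Or65b (-0.75) and Gr47b (-1.15) passed (1.82%).

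Immune recognition and antimicrobial peptide genes had 2 of 39 past the threshold (5.13%, against 2.72% of all genes), GNBP2 and PGRP-LF. PGRP-LF, for a receptor that dampens immune signalling, rose by 1.23 with a GFP RNAi shift of 1.06. Of 22 ecdysone response genes 1 passed (4.55%). This was shd, for the enzyme that makes the active moulting hormone, which fell by 0.81 (limma adjusted p = 0.0323). The ecdysone list median was -0.28 with 6 genes above 0. The GFP RNAi median for that list was -0.27. SdhB, for a subunit of succinate dehydrogenase, fell by 0.53 as the 1 of 26 oxidative phosphorylation genes that passed (3.85%). Among 18 apoptosis genes 1 passed (5.56%). It was skl, for an antagonist of apoptosis inhibitors, which fell by 1.38, with both levels within background. None of 14 heat shock genes (2 unadjusted) or 11 circadian clock genes (2 unadjusted) passed in limma.

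Of 24 haemocyte markers 1 rose and 1 fell (8.33%, against 2.72% of all genes). The marker lz rose, and PPO3, for a prophenoloxidase, fell by 0.85 with a GFP RNAi shift of -0.87. The list median was 0.17 with 16 genes above 0. The summed level of the 7 defining markers was 13.89 and 13.54 in LID RNAi discs, 12.59 and 12.88 in GFP RNAi discs and 12.86 and 11.92 in wild type discs in log2. The GFP RNAi and wild type sums overlapped and the LID RNAi sums lay above them. PPO1 read 11.85 and 11.51 on the LID RNAi arrays, 10.71 and 10.74 with the GFP hairpin and 9.59 and 8.34 in wild type. Its difference of 2.71 and that of PPO2, 2.63, did not pass (limma adjusted p = 0.0607 and 0.106). PPO1 and PPO2 encode the prophenoloxidases of crystal cells. Hml, for haemolectin, and eater, for a phagocytic receptor, had differences of 0.98 and 1.02 that did not pass (limma adjusted p = 0.259 and 0.221). NimC1, another phagocytic receptor gene, read 10.33 and 9.74 in LID RNAi discs, 9.12 and 9.50 in GFP RNAi discs and 10.56 and 9.70 in wild type discs, a difference of -0.10. Pxn, for peroxidasin, read 11.11 and 10.90 on the LID RNAi arrays, 9.54 and 10.13 with the GFP hairpin and 11.06 and 10.30 in wild type, a difference of 0.33. For NimC1 and Pxn the LID RNAi and wild type arrays overlapped. No defining marker other than lz was within background on any array, and the part of blood cells in the other changes was not tested.

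Of 17 muscle and myoblast markers 1 passed (5.88%, against 2.72% of all genes). This was sls, for a titin-like protein, which rose by 1.11 at its brightest probe set (limma adjusted p = 0.0414). That probe set was the 1 that passed of 3 whose changes ran between -0.21 and 1.22. The list median was 0.35 with 11 genes above 0. The summed level of Mlc1 and up was 11.13 and 10.61 in LID RNAi, against 10.42 and 9.61 with the GFP hairpin and 9.90 and 9.87 in wild type, highest in LID RNAi, and its part in the rise of sls was not tested. The 3 gut markers summed to 9.62 and 7.27 in LID RNAi discs, 7.91 and 8.25 in GFP RNAi discs and 11.76 and 9.24 in wild type discs, with a wide spread within LID RNAi and within wild type. None of 12 fat body markers (3 unadjusted) or 12 tracheal markers (4 unadjusted) passed in limma.

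**Figure D4:**
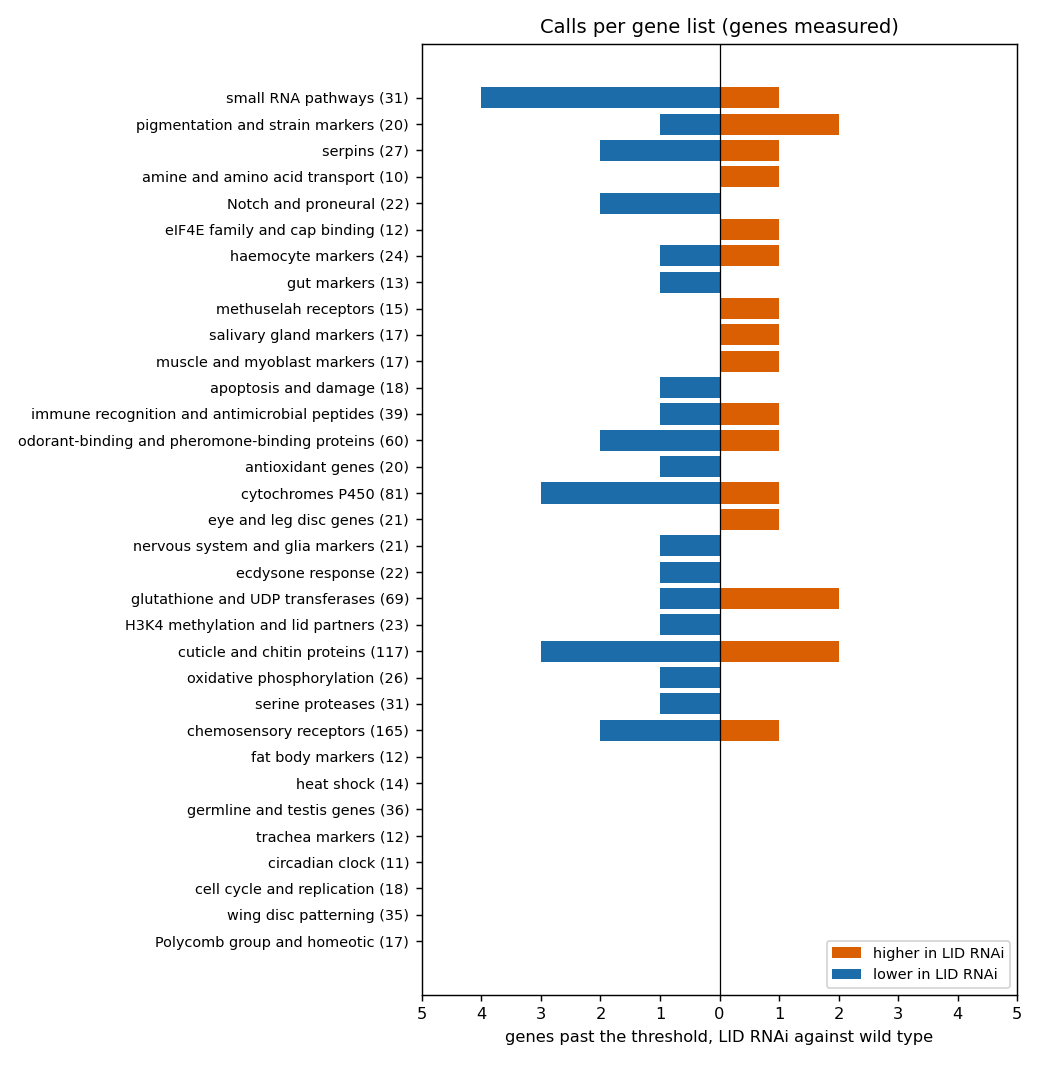
Number of genes past the threshold for LID RNAi against wild type on each of the 33 lists, with genes higher in LID RNAi to the right of 0, genes lower to the left and the number measured in parentheses, ordered by the share that passed. The small RNA pathway list has the highest share, with 4 lower and 1 higher of 31 (16.1%, against 2.72% of all genes). Of these, 2 are LID RNAi only, 1 is shared and 2 are unresolved. The lists were chosen with earlier results of these data known, so their order is a description only. The 8 lists at the bottom have no gene past the threshold.

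Called genes lay on all major chromosome arms, where a gene counts here when any of its probe sets passed. The share higher was 1.23% of 1873 genes on X, 0.725% on 2L, 1.24% on 2R, 1.19% on 3L and 0.706% on 3R, and the share lower ran from 1.39% on X to 2.55% on 2R. Of 65 genes measured on chromosome 4, 5 were higher (7.69%) and 1 lower. The higher genes were Gat, Cadps, yellow-h, Syt7 and RhoGAP102A and the lower 1 was Sox102F, all but yellow-h named after their values were seen. Gat and Cadps belong to the LID RNAi only class and Sox102F to the shared class. Both levels of Syt7 and RhoGAP102A lay within background. Cadps and RhoGAP102A each passed at 1 of 2 probe sets, with changes of 1.57 and 1.61 for Cadps and 0.27 and 0.56 for RhoGAP102A. By the brightest probe sets, the median change on chromosome 4 was -0.03, with 26 of 65 genes above 0.

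In the order of 11891 genes along the chromosomes, 347 passed at any probe set and 18 pairs of them were direct neighbours, 14 pairs with the same direction. How many pairs an even spread of the called genes would give was not computed, so these counts are a description only. Only 1 run held 3 genes. It consisted of CG11699, Kmn1 and Reepl1 on X, all higher in both RNAi groups. Kmn1, for a kinetochore protein, read 12.71 and 12.66 on the LID RNAi arrays, 12.72 and 12.77 with the GFP hairpin and 11.54 and 11.53 in wild type, and CG11699 rose by 0.78. The 4 RNAi arrays of Kmn1 lay together and wild type was apart. On X, t and CG15370 were neighbours as well, both shared and higher, and Obp47a lay next to Spn47C on 2R. Of the 100 genes nearest to Kdm5, 50 on each side, 1 was higher (obst-E) and 2 were lower (Gpdh1 and Ucp4B). Over all 11982 genes, 124 were higher and 225 lower by the same count.

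Different probe sets of a gene did not always move together. Of the genes past the threshold, 53 had several probe sets, and in 4 of them more than 1 passed. The signs matched across all probe sets for 34 of the 53. The level of a gene also bore on the count. Of probe sets with a mean level of LID RNAi and wild type up to 4.82, 0.548% passed, against 3.06% from there to 7, 6.6% between 7 and 9, 3.22% between 9 and 11, and 1.31% above 11.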

How the data were processed

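The deposited log2 values were used without further scaling. Per the submitters' processing notes the authors computed them with RMA, for which no version is given. No columns of other samples were present (0). Group means over the 6 arrays were estimated in limma 3.58.1 under R 4.3.3, leaving 3 residual degrees of freedom and a prior of 1.77. P-values were two-sided and adjusted by Benjamini-Hochberg over 18769 probe sets, with a threshold of 0.05. SE and p-values cover the spread between these arrays, which may be technical, and the number of arrays limits the precision. Of the probe sets 13647 had 1 symbol, 402 several and 4720 none, and 13550 of the 13647 matched a RefSeq gene table (assembly Release 6 plus ISO1 MT), used for names, arms and gene order only. Where a group read within background (up to 4.82) on both arrays, folds are given as bounds against 4.82.

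Named genes are Kdm5, up to 8 per direction and class by size of change among genes whose LID RNAi and wild type arrays do not overlap, up to 5 past the threshold per list, and members of runs of 3 neighbours. The members, lists and tests were chosen with earlier results of these data known. Alternatives changed the scaling, the variance model, the filter, the arrays used and the definition of the classes. No sequences were used.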

Additional observations from a re-analysis of the deposited data

Results flagged for a closer look

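The control probe set AFFX-Dm-K01486-1_at, which is outside the main measurement, read high on the RNAi arrays and at background in wild type. In log2 its mean was 11.6 in LID RNAi discs, 11.88 in GFP RNAi discs and 3.01 in wild type discs. The values were 11.87 and 11.32 on the LID RNAi arrays, 11.91 and 11.85 with the GFP hairpin and 3.07 and 2.96 in wild type, so the arrays of both RNAi groups and those of wild type did not overlap. The files used here pair no gene with this probe set, and no test was run on the control probe sets. The labels do not settle whether the wild type larvae carried the Gal4 driver, so hairpin, driver and strain cannot be told apart in this split.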

How the results depend on the processing

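The deposited values gave 439 changes (160 higher, 279 lower), 104 shared, 53 LID RNAi only and 272 unresolved. Quantile normalization, centring on the medians and dropping probe sets within background kept each count within 1.5 times, except that the last gave 91 LID RNAi only. With a trended and robust variance there were 816 (327 higher, 489 lower), 196 shared, 142 LID RNAi only and 453 unresolved. The LID RNAi and wild type arrays alone gave 99 (49 and 50). Deviations of replicate 1 from the group mean correlated at 0.30 between LID RNAi and GFP RNAi. The correlation was 0.22 between LID RNAi and wild type and 0.06 between GFP RNAi and wild type. Whether arrays of equal replicate number share a preparation was not tested. A replicate block gave 200 (83 and 117), 29 shared, 8 LID RNAi only and 161 unresolved. Leaving out 1 array at a time gave 24 to 324 (16 to 125 higher, 8 to 199 lower), 3 to 61 shared, 0 to 2 LID RNAi only and 10 to 259 unresolved, and each such fit has fewer residual degrees of freedom. The change of Kdm5 then ran from -2.34 to -2.01 (limma adjusted p from 0.0244 to 0.0805), and it missed the threshold without wild type replicate 1 (-2.13) or 2 (-2.22). By size alone, 247 GFP RNAi shifts were at least 0.5 of the LID RNAi shift and 102 under 0.25. Of 86 named genes, 54 passed with the block, and no result changed sign under any of these alternatives. Without 1 array this was fixed, because LID RNAi and wild type did not overlap for any of the 439 changes. With 2 arrays per group, a change that missed the threshold is not shown to be absent.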
